A study of Mus musculus with 9 samples.

Results

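The sites described here are the wild-type intervals of histone H3 lysine 4 trimethylation (H3K4me3) at PRDM9-dependent sites that lie in the distal 10 Mb of the mouse autosomes, at the end away from the centromere. An interval belonged to them when its end lay within 10 Mb of the farthest interval end of its chromosome in the wild-type list. They were chosen by position alone, and they number 1405 of the 17797 autosomal wild-type intervals and of 18427 in all. The other 16392 autosomal intervals are called the rest below. Spermatocytes at 14 days after birth were profiled by chromatin immunoprecipitation with sequencing, with 2 H3K4me3 libraries and 1 library of histone H3 lysine 36 trimethylation (H3K36me3) for each of 3 genotypes. The genotypes are wild-type C57BL/6J and C57BL/6J mice homozygous for either of 2 alleles of Prdm9, in which glutamate 360 is replaced by proline (EP, strain C57BL/6J-Prdm9<em2Kpgn>/Kpgn) or by lysine (EK, strain C57BL/6J-Prdm9<em3Kpgn>/Kpgn). The labels describe each substitution as a severe catalytic hypomorph, and whether the mix of meiotic stages differed between the genotypes was not tested. According to their titles, 6 of the 9 libraries are earlier data analysed again, including every wild-type library. Both mutant H3K36me3 libraries and 1 of the EK H3K4me3 libraries are new. The effects of genotype and of library set therefore cannot be told apart where a mutant is set against wild type for H3K36me3, or EK against EP or wild type for H3K4me3. Each genotype has 1 list for H3K4me3 and 1 for both marks, with positions only and no values per library, so no value below has a replicate error, read depth is unknown, and each test compares lists of intervals and not groups of mice. Spermatocyte markers could not be checked, because the lists hold PRDM9-dependent sites and no expression values.

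PRDM9 is a meiosis-specific methyltransferase whose zinc fingers bind DNA motifs and whose PR/SET domain trimethylates histone H3 on the neighbouring nucleosomes, at both K4 and K36. The sites it marks are where meiotic double-strand breaks form and where recombination is concentrated. Mouse autosomes are telocentric, so each has its centromere at one end, and male crossovers are known to be frequent toward the other, telomere-side end. The comparison of the distal windows with the rest asks whether sites near that end carried the marks, and kept them in the hypomorphs, to the same extent as other sites.

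The sequence under most sites could not be printed from the sources used here, and the RefSeq promoter windows (GRCm38.p6, which shares its coordinates with mm10) give it for the few sites at a transcription start. A window spans 250 bases before to 50 after a start. Of the 1405 distal intervals, 14 overlapped a window (0.996%, against 0.983% of all autosomal wild-type intervals), at 5 protein-coding and 9 lncRNA genes. The 5 protein-coding windows are shown because they place distal sites at named promoters and show how much of each a mutant interval still covered. Each lay wholly inside a wild-type interval. Sequences run 5′ to 3′ on the gene's strand, and capitals mark the bases that also lay inside the EP interval.
Kcnk2 at chr1:189402224-189402523, minus strand: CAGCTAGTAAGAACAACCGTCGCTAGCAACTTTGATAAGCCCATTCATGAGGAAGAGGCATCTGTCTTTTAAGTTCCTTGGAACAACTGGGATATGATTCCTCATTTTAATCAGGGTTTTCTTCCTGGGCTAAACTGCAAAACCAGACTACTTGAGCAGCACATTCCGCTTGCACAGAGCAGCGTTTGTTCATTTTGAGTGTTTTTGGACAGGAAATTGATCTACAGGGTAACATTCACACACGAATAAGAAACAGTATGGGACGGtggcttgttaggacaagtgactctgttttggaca
Tnfrsf14 at chr4:154928028-154928327, minus strand: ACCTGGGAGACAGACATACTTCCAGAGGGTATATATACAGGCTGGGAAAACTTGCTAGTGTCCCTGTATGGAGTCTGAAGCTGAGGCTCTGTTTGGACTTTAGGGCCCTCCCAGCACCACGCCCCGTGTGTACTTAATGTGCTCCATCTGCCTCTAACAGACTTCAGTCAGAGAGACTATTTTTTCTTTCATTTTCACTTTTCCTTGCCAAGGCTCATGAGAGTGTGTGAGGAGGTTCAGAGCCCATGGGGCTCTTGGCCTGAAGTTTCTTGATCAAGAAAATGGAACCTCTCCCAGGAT
Rgs19 at chr2:181691768-181692067, minus strand: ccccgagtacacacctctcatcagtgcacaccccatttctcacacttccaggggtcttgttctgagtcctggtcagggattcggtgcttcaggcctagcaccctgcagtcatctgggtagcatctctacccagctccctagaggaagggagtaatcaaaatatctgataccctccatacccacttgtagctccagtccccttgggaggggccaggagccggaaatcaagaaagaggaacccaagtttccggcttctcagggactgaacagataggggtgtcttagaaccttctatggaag
Zbtb46 at chr2:181424339-181424638, minus strand: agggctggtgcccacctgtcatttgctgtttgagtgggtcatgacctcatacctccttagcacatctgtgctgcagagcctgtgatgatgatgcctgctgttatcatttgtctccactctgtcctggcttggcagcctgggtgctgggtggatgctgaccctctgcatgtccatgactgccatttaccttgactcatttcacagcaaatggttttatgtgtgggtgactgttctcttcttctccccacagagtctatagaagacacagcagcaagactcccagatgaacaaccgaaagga
Tgm4 at chr9:123034491-123034790, plus strand: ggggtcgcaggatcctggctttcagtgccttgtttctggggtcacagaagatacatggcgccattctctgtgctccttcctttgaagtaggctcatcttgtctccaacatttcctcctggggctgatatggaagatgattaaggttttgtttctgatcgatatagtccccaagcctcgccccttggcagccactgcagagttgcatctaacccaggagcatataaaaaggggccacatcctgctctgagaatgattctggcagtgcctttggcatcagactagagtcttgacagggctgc

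At Kcnk2, which encodes a potassium leak channel, the wild-type interval was 789 bp wide, the EP interval covered 266 of the 300 bases of the window and the EK interval all 300. At Tnfrsf14, a receptor of the tumour necrosis factor superfamily, the 809 bp site was kept in both mutants and each mutant interval covered the whole window. At Rgs19, a regulator of G protein signalling, the 2568 bp site was kept in both mutants, but neither mutant interval reached the window. The site at Zbtb46, a zinc finger transcription factor of dendritic cells, was the only one of the 5 that was double-marked in wild type, and it was kept in EP alone, again without reaching the window. The site at Tgm4, a transglutaminase of the prostate, was kept in neither mutant. The windows held between 1 (Zbtb46) and 6 (Kcnk2) CpG dinucleotides and were 43.0 to 53.3% G and C. Of the 14 distal intervals at a start, EP kept 8 and EK kept 6, all of the latter shared. These are 57.1% and 42.9%, where EP kept 20.8% and EK 18.8% of the other 1391 distal intervals, a contrast that was not tested. Keeping at starts outside the distal windows is not given here, so these shares cannot be read as a distal trait. In wild type 3 of the 14 were double-marked (21.4%, against 32.9% of the others), and none was in a mutant.

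Distal sites had a density close to that of other sites and were slightly narrower. The distal windows held 7.39 wild-type intervals per Mb over 190 Mb, and the rest of the autosomes 7.46 per Mb. The distal density was above that of the rest on 8 chromosomes and below it on 11, from 5.3 per Mb on chromosome 4 to 10.5 per Mb on chromosome 19. It was highest in the last 2 Mb, at 9.66 per Mb, and 6.18 to 7.16 per Mb in the other bins of 2 Mb. The distance runs to the last wild-type interval, which the rule places at 0, so the outermost bin always holds an interval. The median gap to the nearest other wild-type interval was 38.0 kb at distal sites and 39.0 kb at the rest, and 265 distal sites (18.9%) had a neighbour within 10 kb, against 18.6% of the rest. The median distal interval spanned 1068 bp, with quartiles at 812 and 1453 bp and extremes of 217 and 4918 bp. The median of the rest was 1130 bp, with quartiles at 827 and 1531 bp. Of the distal intervals, 636 (45.3%, 95% Wilson interval 42.7 to 47.9%) were at least as wide as the median of all autosomal intervals, 1125 bp, which 50.1% of all autosomal intervals reached. The first 10 Mb at the centromere side, with 46.4% (43.6 to 49.1%) and a median of 1090 bp, had similar values, which were not tested against the distal ones. The distal share was 5.20 percentage points below the rest, at 50.5% (95% interval of the difference -7.89 to -2.47 points, Fisher's exact test, p adjusted by Benjamini-Hochberg over 9 distal tests = 0.000872). With a limit of 5 Mb the difference was -0.12 points (adjusted p = 0.970, Fisher's exact test). By chromosome, the distal share was lower on 14 and higher on 5, which did not pass the threshold (exact two-sided sign test, p = 0.0636). The bins from 4 to 10 Mb had median widths of 1020 to 1029 bp, and the last 2 Mb had a median of 1159 bp.

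Distal sites carried both marks less often in wild type. H3K36me3 joined H3K4me3, which is called double-marking below, at 460 of the 1405 distal intervals (32.7%, 30.3 to 35.2%). Over all autosomal intervals the share was 37.5%, and at the rest it was 37.9% (37.1 to 38.6%, 6206 of 16392). The difference was -5.12 percentage points (-7.64 to -2.51, Fisher's exact test, adjusted p = 0.000872). It was seen among wider intervals and not among narrower ones, though this contrast itself was not tested. Among intervals at least as wide as the median, 353 of 636 distal sites were double-marked (55.5%) against 61.4% of the rest, a difference of -5.86 points. Among narrower intervals the shares were 13.9% in each, a difference of -0.0021 points. Within deciles of width the difference was -2.32 points and no longer passed the threshold (Cochran-Mantel-Haenszel test, adjusted p = 0.105), and with a limit of 5 Mb it was -1.10 points (Fisher's exact test, adjusted p = 0.797).

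The share of double-marked sites was not even within the distal window. It was 38.7% in the last 2 Mb (33.8 to 43.8%, 142 of 367 intervals) and 36.3% from 2 to 4 Mb (30.7 to 42.2%), both with intervals that include the 37.9% of the rest. From 4 to 6 Mb it was 29.0% (23.9 to 34.7%) and from 6 to 8 Mb 23.5% (18.9 to 28.9%), both below the rest. From 8 to 10 Mb it was 34.5% (28.7 to 40.8%). The sites closest to the chromosome end were thus not the ones with the low shares. These bins were read as a description and were not tested against each other.

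**Figure D1:**
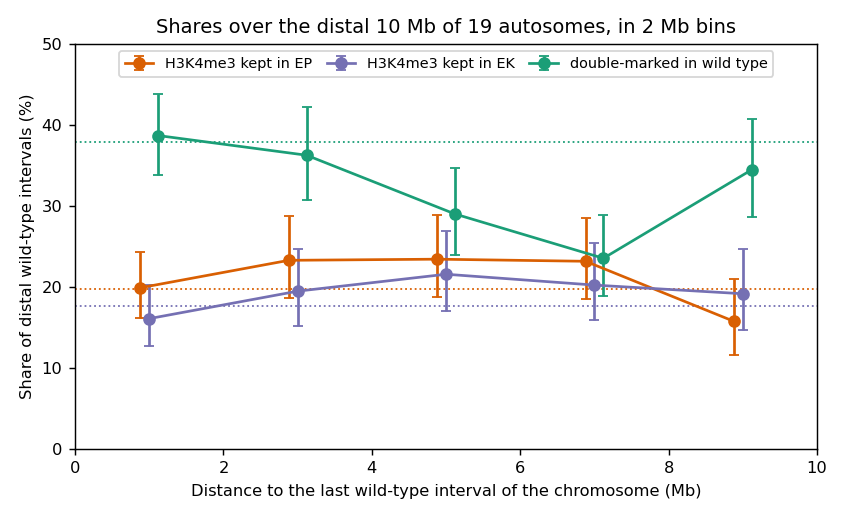
Share of distal wild-type intervals (vertical axis, %) that were kept in EP, kept in EK or double-marked in wild type, by distance to the last wild-type interval of the chromosome (horizontal axis, Mb, bins of 2 Mb over 19 autosomes). Points carry 95% Wilson intervals, dotted lines give the rest of the autosomes, and double-marking is lowest from 6 to 8 Mb, at 23.5%.

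The low distal share came from some chromosomes and not from others. The 19 distal windows fell into a lower set of 10 chromosomes, with shares up to 29.6%, and a higher set of 9, with shares from 37.5%. The lowest shares were on chromosome 16 (17.9%, against 40.5% on the rest of that chromosome), chromosome 15 (21.8% against 42.1%) and chromosome 7 (23.0% against 36.8%). The highest was on chromosome 12 (32 of 64 sites, against 39.7%), followed by chromosome 9 (43.9% against 37.6%) and chromosome 1 (42.5% against 39.9%). The rest of the chromosomes ranged only from 32.5% (chromosome 17) to 42.1% (chromosome 15), but those shares come from many more intervals. The distal share was below the rest on 10 chromosomes and above it on 9 (exact two-sided sign test, p = 1), with a median difference of -2.98 points. The spread among the 19 distal windows was larger than counting error (chi-square test over chromosomes, adjusted p = 0.000248 over 3 measures). Neighbouring sites on a chromosome are therefore not independent, and the p-values of the pooled comparison are too small for a statement about chromosome ends in general. The pooled difference ran from -5.85 to -4.14 points when each chromosome was left out in turn.

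**Figure D2:**
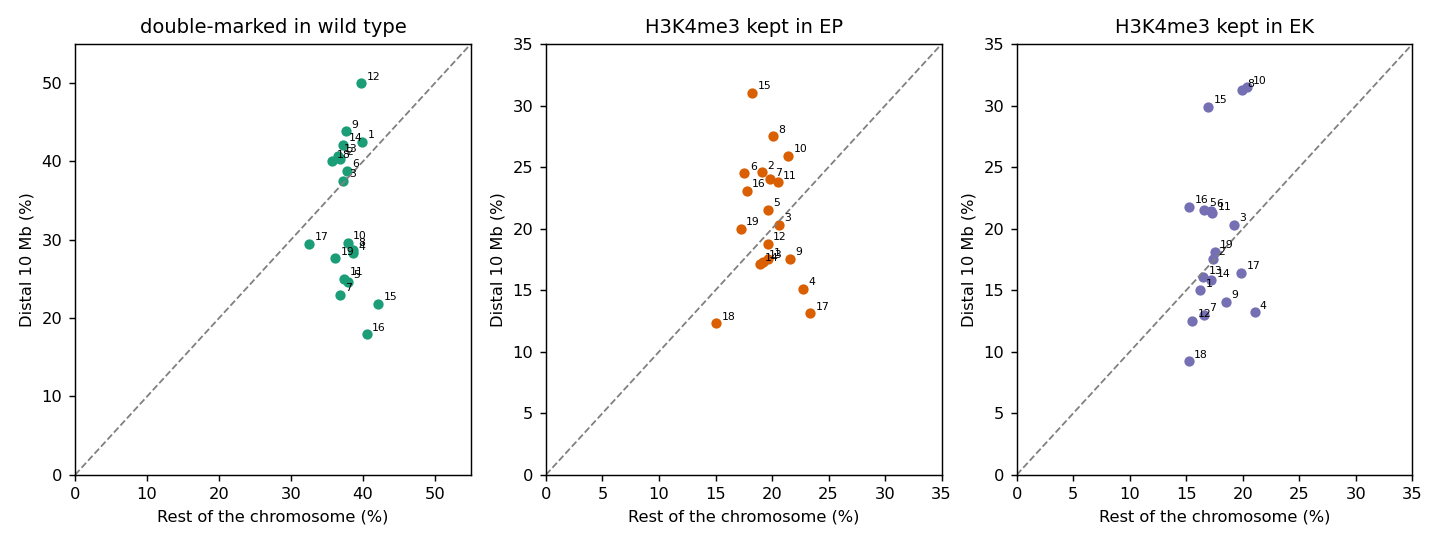
Share of wild-type intervals in the distal 10 Mb (vertical axis, %) against the rest of the same chromosome (horizontal axis, %) for 19 autosomes, with 1 numbered point per chromosome and a dashed line of equality. For double-marking, 9 chromosomes lie above the line and 10 below, with no distal share between 29.6 and 37.5%.

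EP and EK kept H3K4me3 at distal sites not detectably more or less often than elsewhere. A site was kept when an interval of the mutant H3K4me3 list overlapped it. EP kept 297 of 1405 distal intervals (21.1%, 19.1 to 23.4%), against 19.8% of all autosomal intervals and 19.7% of the rest. EK kept 268 (19.1%, 17.1 to 21.2%), against 17.7% of all and 17.6% of the rest. The differences of 1.43 points in EP (-0.717 to 3.72) and 1.44 points in EK (-0.612 to 3.66) both missed the threshold (adjusted p = 0.322 for each by Fisher's exact test). Without chromosome 15 they were 0.712 points in EP and 0.701 in EK. With limits of 5 and 20 Mb the difference was 2.49 and 0.144 points in EP and 0.270 and 0.752 points in EK. Within width deciles the EP difference was 2.25 points, which did not pass the threshold after adjustment (Cochran-Mantel-Haenszel test). At the other end of the chromosomes, among the 1264 intervals in the first 10 Mb of each list, EP kept 16.6% (14.7 to 18.8%) and EK 15.8% (13.9 to 17.9%), and 35.8% were double-marked in wild type. The distal and the centromere-side windows were not tested against each other.

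The kept sites were largely the same in the mutants. Of the distal sites, 218 (15.5%) were kept in both, against 14.2% of all autosomal intervals, and 1058 (75.3%) in neither, against 76.7%. The 218 shared sites were 73.4% of those kept in EP and 81.3% of those kept in EK. At the rest these shares were 71.6% and 80.1%. EP alone retained 79 distal sites and EK alone 50, which is 2.06 points of all distal sites (exact McNemar test, p = 0.0134). Without chromosome 7 this difference was 1.38 points and did not pass the threshold (exact McNemar test, p = 0.114). Among narrow distal intervals it changed sign, to -2.73 points (exact McNemar test, p = 0.0111). It was 7.86 points among wide distal intervals (exact McNemar test, p = 1.8e-10). With a limit of 5 Mb it was 4.2 points (exact McNemar test, p = 0.000628). Of the distal sites kept in a single mutant, 61.2% (52.6 to 69.2%) were kept in EP alone, against 61.4% of all such autosomal sites (difference from the rest -0.18 points, -9.13 to 8.17, Fisher's exact test, adjusted p = 1). The sign of this difference depended on the setting: it was 8.06 points with a limit of 5 Mb (adjusted p = 0.376, Fisher's exact test) and 12.7 points among narrow intervals (adjusted p = 0.199, Fisher's exact test).

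Distal keeping varied among chromosomes beyond counting error in EK, and in EP this was not detected. EK kept 31.5% of the distal sites on chromosome 10, 31.2% on chromosome 8 and 29.9% on chromosome 15, and 9.23% on chromosome 18. The spread among the 19 windows passed the threshold for EK (chi-square test, adjusted p = 0.0210) and not for EP (adjusted p = 0.375). EP kept from 12.3% on chromosome 18 to 31.0% on chromosome 15. The spreads of EP and EK were not tested against each other. Chromosome 15 thus held the highest EP share and the third highest EK share beside the second lowest share of double-marking. It also had the lowest share of distal intervals at least as wide as the median, 34.5% against 52.4% on its rest. On chromosome 16, with the lowest share of double-marking, EP kept 23.1% and EK 21.8%. How these shares are related was not tested. The distal share was above the rest on 10 chromosomes and below it on 9, for EP as for EK.

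Keeping followed width among the distal sites. In the narrowest decile of all autosomal intervals (116 to 633 bp), EP kept 51.8% of 141 distal sites (43.6 to 59.9%) and EK 58.2%, against 47.0% and 55.2% of the rest. Of the 136 distal sites of intermediate width (sixth decile, 1126 to 1271 bp), 3.68% were kept in EP and 4.41% in EK, against 6.42% and 6.24% of the rest. In the widest decile (1942 to 5524 bp), EP kept 67.0% of 112 distal sites, and EK 34.8%. In that decile the rest had 56.7% and 26.0%. These gaps between distal sites and the rest were not tested decile by decile. The mutants differed in opposite directions along this range. In the third decile (768 to 884 bp), EK alone kept 13 distal sites and EP alone 2 (adjusted p = 0.0246 over 10 deciles by the exact McNemar test), and at the rest 95 and 20. The fourth decile had 9 for EP alone and 2 for EK alone (adjusted p = 0.131, exact McNemar test), where the rest had 14 and 63. In the ninth decile EP alone kept 13 and EK alone 1 (adjusted p = 0.00916, exact McNemar test), and at the rest 154 and 11. In the widest decile EP alone kept 36 and EK alone 0 (adjusted p = 2.91e-10, exact McNemar test), and at the rest 523 and 10. Double-marking in wild type was found at 6.71 to 10.3% of distal sites in the 3 narrowest deciles, at 70.1% in the ninth and at 62.5% in the widest. The rest had 8.91 to 10.6%, 75.1% and 68.7% in the same deciles.

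**Figure D3:**
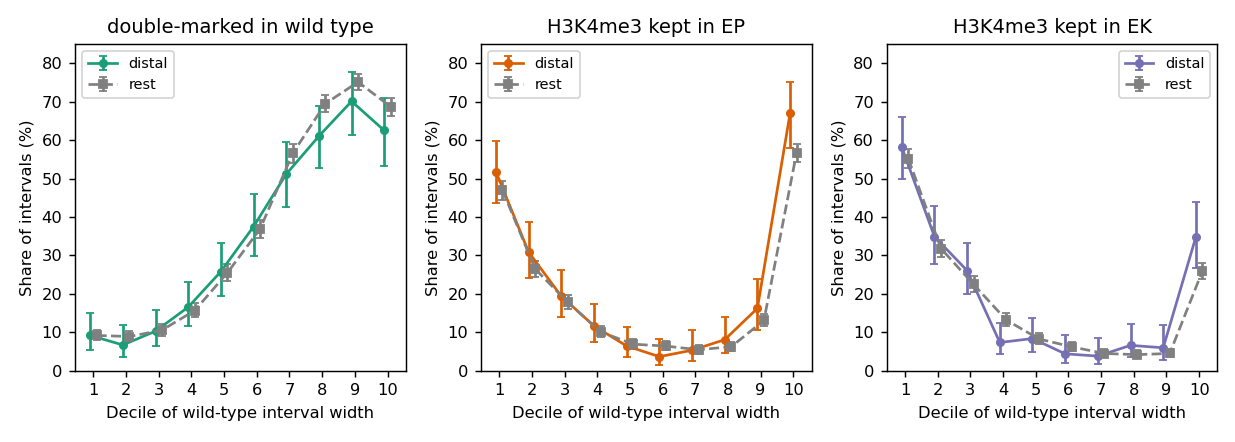
Share of wild-type intervals (vertical axis, %) that were double-marked in wild type, kept in EP or kept in EK, by decile of wild-type width (horizontal axis), for distal sites (circles) and the rest (squares), with 95% Wilson intervals. Keeping is high in the narrowest and the widest decile and low between them, down to the sixth decile for distal sites in EP (3.68%) and the seventh in EK (3.82%).

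Kept distal intervals were shorter in the mutants than in wild type. Distal sites kept in EP had a median wild-type width of 867 bp, and the EP intervals there a median of 676 bp. The median ratio of EP to wild-type width was 0.638 at distal sites and 0.576 at the rest. Distal sites kept in EK had a median wild-type width of 766.5 bp and EK intervals of 673 bp, with a median ratio of 0.905 (0.870 at the rest). Distal sites lost in EP had a median wild-type width of 1091 bp and those lost in EK 1125 bp.

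EK, but not detectably EP, kept distal sites with both marks less often than those with H3K4me3 alone. Of the 460 distal sites double-marked in wild type, EP kept 95 (20.7%) and of the 945 others 202 (21.4%), a difference of -0.72 points (-5.12 to 3.94, Fisher's exact test, adjusted p = 0.781 over the 2 mutants). This EP value was 6.41 points among wide and -5.48 points among narrow distal intervals (Fisher's exact tests, adjusted p = 0.0798 and 0.268), and 3.68 points with a limit of 5 Mb. EK kept 59 (12.8%) and 209 (22.1%), a difference of -9.29 points (-13.2 to -5.08, Fisher's exact test, adjusted p = 5.05e-05). The rest had much the same shares: EP kept 20.1% of its double-marked and 19.5% of its other sites, and EK 11.4% and 21.5%. A direct test of the mutants on the same sites gave a difference too. Wild type carried both marks at 44 of the 79 distal sites that EP alone kept (55.7%) and at 8 of the 50 that EK alone kept (16.0%), which differ by 39.7 points (23.1 to 52.6, Fisher's exact test, p = 7.2e-06). At the rest these shares were 65.4% and 9.90%. The EK difference changed sign, to 3.06 points, among wide distal intervals (adjusted p = 0.243, Fisher's exact test) and was -6.17 points with a limit of 5 Mb (adjusted p = 0.0784, Fisher's exact test). Among narrow distal intervals the EK difference was -11.9 points (adjusted p = 0.0178, Fisher's exact test). These tests treat sites as independent, although double-marking and keeping in EK varied among the distal windows, so their p-values may be too small.

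Few distal sites carried both marks in the mutants. Of the 297 distal sites kept in EP, 27 were double-marked in EP (9.09%, 6.32 to 12.9%), against 11.4% of all autosomal sites kept in EP. Of the 268 kept in EK, 22 were double-marked in EK (8.21%, 5.48 to 12.1%), against 7.5% of all. The differences from the rest were -2.48 points in EP (-5.48 to 1.47) and 0.77 points in EK (-2.14 to 4.78), with adjusted p = 0.322 and 0.707 by Fisher's exact test, so that neither passed. The EK difference was 4.36 points with a limit of 5 Mb and 7.02 points among wide intervals (Fisher's exact tests, adjusted p = 0.283 and 0.323). The 218 distal sites that both mutants kept carried both marks at 51 in wild type (23.4%), at 23 in EP (10.6%) and at 20 in EK (9.17%). Among the 2314 such sites of the rest the shares were 28.0%, 11.4% and 8.43%. Only EP had both marks at 12 of the 218, and only EK at 9 (exact McNemar test, p = 0.664). Among the 2314 of the rest these counts were 130 and 62. Of the 460 distal sites with both marks in wild type, 23 kept both in EP (5.0%, 3.35 to 7.39%) and 14 in EK (3.04%, 1.82 to 5.04%). At the rest these shares were 4.46% and 2.26%. In all, 38 distal sites on 16 chromosomes were double-marked in at least 1 mutant, 2.71% of the distal sites against 2.78% of the rest. Chromosome 8 held 6 of them among its 80 distal sites. Chromosomes 6 and 19 held 5 each, among 98 and 105 distal sites. Whether these counts differ from an even spread over the distal sites was not tested. Both mutants shared 11 of them (0.783% of all distal sites, against 0.811% of the rest), and 11 lacked double-marking in wild type (0.783%, against 0.885% of the rest).

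**Figure D4:**
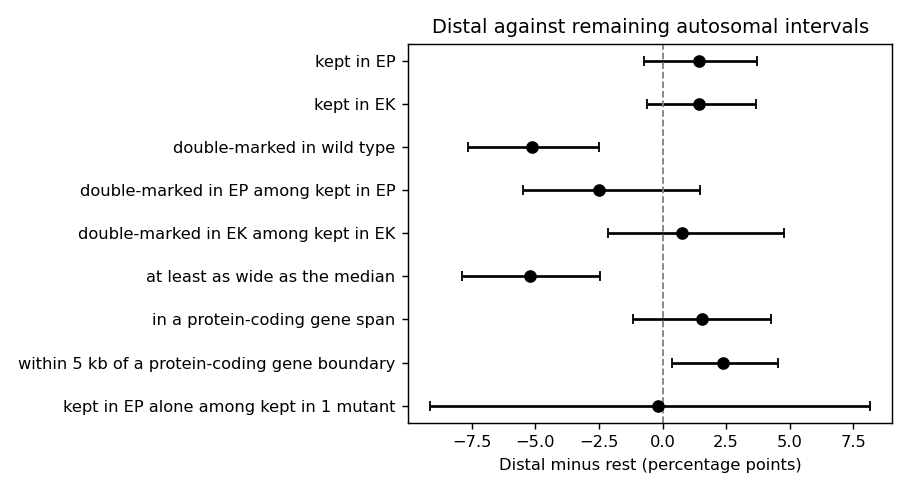
Difference between distal sites and the rest of the autosomal wild-type intervals (horizontal axis, percentage points) for the 9 shares compared, with 95% Newcombe intervals. The intervals of double-marking in wild type and of the share at least as wide as the median lie below 0, at -5.12 and -5.20 points, and that of proximity to gene boundaries lies above 0.

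Both marks remained in all 3 genotypes at 10 distal sites (0.712%, against 0.652% of all autosomal intervals), and all but 1 of them had wild-type intervals of 1932 bp or more. Of these, 9 are described. A site on chromosome 19 at 60478559 to 60481977 lay outside protein-coding genes, 9.63 kb from Prlhr (226278), the receptor of prolactin-releasing peptide, with H3K4me3 over 3419 bp (wild type), 2172 bp (EP) and 1927 bp (EK) and both marks over 3193, 998 and 863 bp. Another lay within the span of Plxna2 (18845), a semaphorin receptor, on chromosome 1 at 194639160 to 194642297, 0.199 Mb from the last wild-type interval. Both marks covered 3107 bp there in wild type and 923 bp in each mutant. At each of the sites described the wild-type interval was wider than those of the mutants, for H3K4me3 as for both marks.

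Chromosome 6 held 2 of the 9. One, at 147648191 to 147651300, lay 15.6 kb from Ccdc91 (67015), with double-marked widths of 2770, 1608 and 1568 bp in wild type, EP and EK. The other, at 149429300 to 149432350, lay within Bicd1 (12121), an adaptor of the dynein motor, 0.120 Mb from the last interval, with 3051, 1246 and 1108 bp. On chromosome 8 a site within Nrp1 (18186), a co-receptor of semaphorins and vascular growth factors, at 128371778 to 128374580, had 2803, 1365 and 1399 bp. On chromosome 2 a site at 179249448 to 179252140 lay 162.8 kb from the nearest protein-coding gene, 4930591A17Rik (68175), and had 2411, 1412 and 1091 bp. The site within Sdk1 (330222), a cell adhesion protein, on chromosome 5 at 142044994 to 142047599, lay 9.37 Mb from the last interval and had 2606, 1428 and 1004 bp. The site within Cep170b (217882), on chromosome 12 at 112725176 to 112727107, had 1932, 1244 and 940 bp, and lay 3.01 kb from a gene boundary. The narrowest lay within Socs6 (54607), a suppressor of cytokine signalling, on chromosome 18 at 88891775 to 88892476, with 702, 391 and 590 bp, and was the only one of the 9 where the EK interval with both marks came close to the wild-type width.

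**Figure D5:**
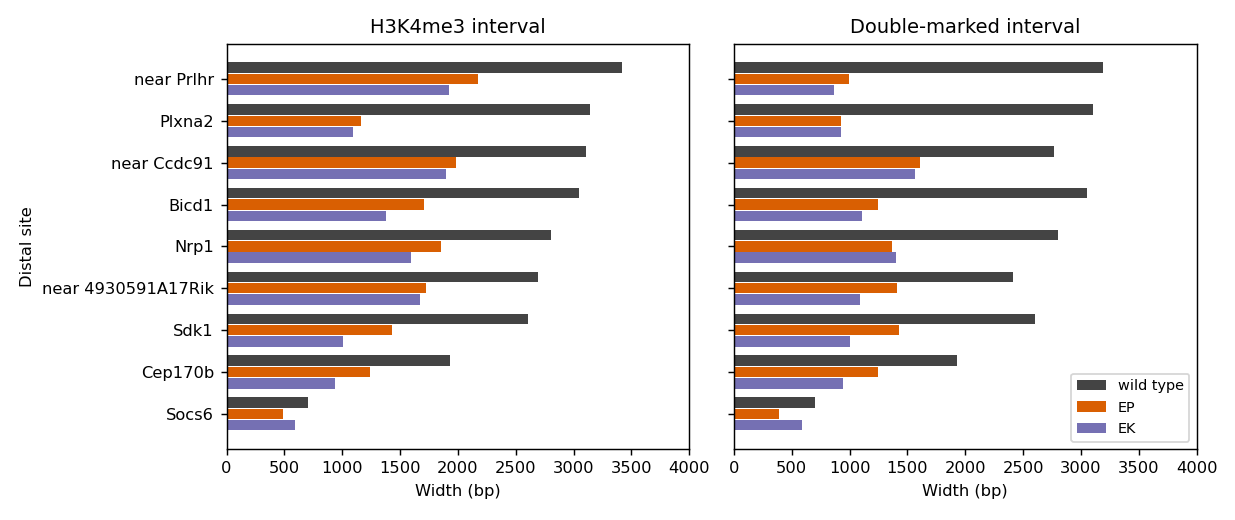
Widths (horizontal axis, bp) of the H3K4me3 interval (left) and the double-marked interval (right) in wild type, EP and EK at 9 distal sites double-marked in all 3 genotypes, named by the protein-coding gene that holds the site or the nearest one. There is 1 interval per genotype and no error, and wild type has the widest bar at each site in each panel.

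Other distal sites kept both marks in a single mutant. The widest distal interval of the wild-type list, 4918 bp within Myt1 (17932), a zinc finger factor of the nervous system, on chromosome 2 at 181808678 to 181813595, was double-marked over its whole width in wild type and over 1148 bp in EP. EK kept 1501 bp of H3K4me3 there, outside its double-marked list. The outermost interval of chromosome 14, 3125 bp within Fgf14 (14169), a modulator of sodium channels, at 124594640 to 124597764, had the same pattern, with 3009 bp double-marked in wild type and 1290 bp in EP. A site on chromosome 8 at 128196878 to 128199929, 158.7 kb from Nrp1, kept 619 bp with both marks in EP and no H3K4me3 interval in EK. In EK and not EP, both marks remained over 817 bp within St8sia1 (20449), the ganglioside GD3 synthase, on chromosome 6 at 142860293 to 142863846, and over 682 bp on chromosome 8 at 127816571 to 127819052, 204.3 kb from Pard3 (93742), a cell polarity gene. They were also found over 1052 bp at a site on chromosome 11 at 113665984 to 113668154, which overlaps Cog1 (16834), of the Golgi complex, and Fam104a, and which was not double-marked in wild type. Each of the last 3 sites kept H3K4me3 in EP, over 1084 to 1911 bp.

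Some wide distal sites were kept in neither mutant, but this was no feature of the distal windows. In the widest decile of width, EP kept 67.0% of distal sites and 56.7% of the rest. EK kept 34.8% and 26.0% there, and these gaps were not tested. The widest distal site kept in neither mutant was 3591 bp wide on chromosome 11 at 121742204 to 121745794, 24.8 kb from Metrnl (210029) and 0.0973 Mb from the last interval, and its double-marked interval was 3293 bp. The second was a 2647 bp site on chromosome 12 at 118775223 to 118777869, 68.4 kb from Sp8 (320145), a transcription factor gene of limb development, with 970 bp double-marked. The third was a 2432 bp site within Mob2 (101513) on chromosome 7 at 142023433 to 142025864, not double-marked in wild type. Among sites double-marked in wild type and kept in both mutants, those nearest the end were the Fgf14, Bicd1 and Myt1 sites. The 10 Mb limit fell between a 538 bp site within Fbxl2 (72179) on chromosome 9, 9.997 Mb from the last interval, kept in both mutants, and a 1037 bp site within Pde4d (238871) on chromosome 13, 10.01 Mb from it, kept in neither.

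Distal sites lay in genes not detectably more or less often than other sites. The span of a protein-coding gene overlapped 782 distal intervals (55.7%, 53.1 to 58.2%), against 54.2% of all autosomal intervals and 54.1% of the rest (difference 1.57 points, -1.15 to 4.25, Fisher's exact test, adjusted p = 0.340). A boundary of a protein-coding gene lay within 5 kb of 251 distal intervals (17.9%), against 15.7% of all and 15.5% of the rest. The difference of 2.38 points (0.38 to 4.54) did not pass the adjusted threshold (Fisher's exact test, adjusted p = 0.0591, unadjusted p = 0.0197). With the 10 Mb limit the distal share was higher on 9 of 19 chromosomes. With a limit of 5 Mb the pooled difference was 4.63 points and passed (Fisher's exact test, adjusted p = 0.00814), and the chromosomes were not compared at that limit. Whether sites were exonic or intronic was not analysed here. Coordinates are mm10, counted from 1.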

How the data were processed

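Per the description deposited with the files, the authors mapped reads to mm10, and each of the 6 lists holds the peaks detected in 1 genotype among H3K4me3 sites already known to depend on PRDM9. The H3K4me3 lists of wild type and EP come from an earlier series. The submitters' processing notes name Trimmomatic, BWA 0.7.9a and MACS 1.4, without their roles. The detection threshold, the input control and how the EK H3K4me3 libraries were combined for their list are not given in the sources used here. The deposited values are interval borders with no score or count, so no depth, replicate comparison or interval for read sampling can be given. A mutant peak outside the site set could not enter a list.

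Python 3.11.15 with pandas 2.3.3 was used. Overlap of at least 1 bp scored an interval as kept or double-marked. Shares have 95% Wilson intervals and their differences Newcombe intervals. Fisher's exact and exact McNemar tests were two-sided (SciPy 1.17.1), and stratified tests used statsmodels 0.14.6. Benjamini-Hochberg adjustment covered the 9 distal tests. Functions were tested on simulated data. Gene spans and promoter windows came from RefSeq (GRCm38.p6), with 31396 autosomal windows.

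The members, tests and alternatives were chosen with earlier results of these data known. Sites were named by this rule: at most 12 double-marked in all 3 genotypes, at most 3 each double-marked in EP or EK only or kept in neither, widest first, the 3 double-marked in wild type and kept in both mutants nearest the end, and the nearest to the 10 Mb limit on either side. The promoter counts, sign tests and chi-square tests over chromosomes, the decile tests and the test over sites kept in a single mutant by double-marking were added after the lists were seen. X and Y intervals were left out by the rule. The counts include 1 site covered by the naming rule that is not reported here.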

Additional observations from a re-analysis of the deposited data

Results flagged for a closer look

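The mutants differed in which distal sites they kept. Wild type had both marks at 44 of the 79 that EP alone kept and at 8 of the 50 that EK alone kept, a gap of 39.7 percentage points (p = 7.2e-06, Fisher's exact test). At the rest the shares were 65.4% and 9.90%. The distal gap was singled out because the effect of wild-type double-marking differed between EP and EK in a direct test on the same sites. The sites kept in a single mutant also differed in width, as given by decile in the report, and the part of width in this difference was not tested. A like pattern over all autosomal sites was known before this test was chosen, so it is not independent support.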

How the results depend on the processing

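Distal minus rest differences are given in percentage points. The lower share of double-marking in wild type (-5.12) lost significance with a limit of 5 Mb (-1.10), among narrow intervals (-0.0021), within width deciles (-2.32) and in the sign test over chromosomes (median -2.98), and that of wide intervals (-5.20) with a limit of 5 Mb (-0.12) and in the sign test (median -5.03). Proximity to gene boundaries passed with a limit of 5 Mb (4.63) and with chromosome ends taken from all lists and the gene table (2.75), and had the opposite sign as a median over chromosomes (-0.0749). Among narrow intervals the signs turned for keeping in EK (-0.155), gene spans (-0.368) and double-marking among EK-kept sites (-1.15), as did double-marking among EP-kept sites with a limit of 5 Mb (1.11). Double-marking among EK-kept sites was 4.36 with a limit of 5 Mb and 7.02 among wide intervals, neither past the threshold. The share kept in EP alone (-0.18) turned with a limit of 5 Mb (8.06), with midpoints at most 500 bp apart (0.569), among narrow intervals (12.7), within width deciles (5.31), without intervals near gene boundaries (1.82), with ends from all lists and the gene table (0.541) and as a median over chromosomes (0.220). Within the distal sites, EP minus EK keeping turned among narrow intervals (-2.73), and the effect of double-marking was -6.17 (EK) and 3.68 (EP) with a limit of 5 Mb and 3.06 (EK) and 6.41 (EP) among wide intervals. The cause of these changes was not tested. Of 131 values under other settings that could change them, 106 did not turn in sign and kept their side of the threshold, as did 226 of 247 with a chromosome left out. The 106 include a value of exactly 0, for double-marking in EP against EK at narrow distal sites kept in both. Leaving out each chromosome in turn gave 1.38 to 3.13 for gene boundaries (past the threshold without chromosome 1, 3, 6, 13, 14, 17, 18 or 19), -3.30 to 1.43 for the share in EP alone, -0.0134 to 1.36 for double-marking among EK-kept sites, -1.95 to 0.350 for the effect of double-marking on keeping in EP, and 1.38 (without chromosome 7, below the threshold) to 2.42 for EP minus EK keeping. No paired analysis was possible because the lists hold no values per library, and for the same reason no replicate could be left out. The read depth behind an interval is unknown, so loss of a site means that no peak was listed.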

Other observations

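A few mutant intervals in the distal windows had no wild-type interval. The EP H3K4me3 list held 300 intervals there and the EK list 270, and 2 of each overlapped no wild-type interval. Both mutants had one that starts at position 112662010 of chromosome 13, ending at 112662226 in EP and at 112662565 in EK. An EP interval on chromosome 6 at 148942403 to 148942559, 157 bp wide, was in its double-marked list over its whole width. The EK double-marked list held 126 bp of the same site, which was not among the 2 EK H3K4me3 intervals counted above. The other EK H3K4me3 interval, 143 bp wide, lay on chromosome 8 at 123317253 to 123317395. How many mutant intervals elsewhere on the autosomes lacked a wild-type interval is not given here, so the distal counts have no background share.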
